A study of Mus musculus with 8 samples.

Results

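In mouse liver at ZT10, 12825 of the chromatin loops captured through the HA tag of REV-ERBα ran from the end of a protein-coding gene to a place with no such end nearby. They are called outward loops because they lead away from the gene end, whether into the gene or out of it. They were chosen from the loop list of the ZT10 knock-in library as loops on nuclear chromosomes whose anchor midpoints lay at most 100 kb apart, whose narrower anchor measured 700 bp or more, and of which exactly 1 anchor lay within 5 kb of the start or end of a RefSeq protein-coding gene (mm10). They made up 22.2% of the 57865 nuclear loops of that library, and the 6 libraries analysed listed 277517 loops in all. Among the 35082 short, wide loops of the ZT10 library they formed 36.6%, beside 4277 loops with both anchors at gene ends and 17980 with neither. Position, span, width and membership in the ZT10 list chose these loops, so all values from that library are descriptions without a test.

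REV-ERBα, encoded by Nr1d1, is a nuclear receptor that represses transcription and forms 1 arm of the circadian clock. In liver it also holds down genes of lipid, bile acid and glucose metabolism, and it recruits a corepressor complex with a histone deacetylase to sites that lie mostly away from promoters. Chromatin loops can bring such distant sites close to gene ends in the nucleus.

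Loops were mapped by in-situ ChIA-PET, which joins crosslinked chromatin fragments before immunoprecipitation, so that each paired-end tag (PET) marks a pair of places in the genome that were near each other where the protein was bound. The ZT10 and ZT22 knock-in libraries came from REV-ERBa3HA/3HA liver, in which the animals' own protein carries the HA tag, with 1 library per time of day. The dhIDR libraries (2) came from REV-ERBaf/fREV-ERBbf/f liver given AAV8-TBG-Cre and AAV8-TBG-3HA-REV-ERBa-delhIDR, a form that by its name lacks the hIDR, and the WT libraries (2) from the same floxed liver given AAV8-TBG-Cre and AAV8-TBG-3HA-REV-ERBa-WT, all at ZT10. The TBG promoter is active in hepatocytes, so Cre and the tagged constructs are limited to those cells, while both floxed receptor genes remain in the others. Neither the 2 anti-CTCF samples nor any input or untagged control library was analysed here.

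The ZT10 library listed 320427 PETs on nuclear chromosomes, and the others between 104161 and 204018. Every listed loop held at least 3 PETs, so an unlisted loop is not shown to be absent. It may have had 0 to 2 PETs, or have been dropped or placed elsewhere when loops were called, which is not described here. Whether both replicates of a construct derive from different mice is not given by the labels, and p-values therefore cover the spread among libraries alone, technical spread possibly included. All intervals cover counting error only, and PETs may include PCR copies. In whole liver, fewer cells with a loop and fewer contacts per cell cannot be told apart.

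Annotated starts of 5 hub or clock genes described below are shown first. Each lay under at least 1 ZT10 gene-end anchor, while the distant anchors could not be read without a genome sequence. The stretches printed lay under the gene-end anchor of 10 of 23 loops at Ppp1r3c, 2 of 37 at Irs2 and 2 of 22 at Bcl6. At Cry1 this held for 3 of 10 loops and at Nfil3 for 1 of 6, so most anchors lay beside them. Each line gives RefSeq's promoter window (GRCm38.p6, the coordinates of mm10) from 250 bases before to 50 bases after a gene start, 5′ to 3′ along the gene. The windows are chr19:36736555-36736854 (Ppp1r3c), chr8:11008880-11009179 (Irs2), chr16:23988803-23989102 (Bcl6), chr10:85185005-85185304 (Cry1) and chr13:52980990-52981289 (Nfil3), all on the minus strand. The Nfil3 window lies inside the gene (chr13:52967209-52982878), at an annotated start other than the outermost end used to choose loops. Capitals mark matches, on either strand, to the 6 motifs searched. These 5 were picked after their matches were seen.
Ppp1r3c promoter: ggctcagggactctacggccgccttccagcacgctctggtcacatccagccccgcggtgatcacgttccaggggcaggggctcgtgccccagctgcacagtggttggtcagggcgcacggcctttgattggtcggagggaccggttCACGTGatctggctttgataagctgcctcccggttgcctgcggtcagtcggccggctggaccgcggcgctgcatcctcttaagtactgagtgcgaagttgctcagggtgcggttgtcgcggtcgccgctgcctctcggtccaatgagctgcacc
Irs2 promoter: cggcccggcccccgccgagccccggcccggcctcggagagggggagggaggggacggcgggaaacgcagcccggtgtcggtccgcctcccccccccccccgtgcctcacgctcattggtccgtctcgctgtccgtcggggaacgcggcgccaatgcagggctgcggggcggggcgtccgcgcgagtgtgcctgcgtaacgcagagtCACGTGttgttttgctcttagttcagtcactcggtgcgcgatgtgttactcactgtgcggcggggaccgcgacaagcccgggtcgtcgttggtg
Bcl6 promoter: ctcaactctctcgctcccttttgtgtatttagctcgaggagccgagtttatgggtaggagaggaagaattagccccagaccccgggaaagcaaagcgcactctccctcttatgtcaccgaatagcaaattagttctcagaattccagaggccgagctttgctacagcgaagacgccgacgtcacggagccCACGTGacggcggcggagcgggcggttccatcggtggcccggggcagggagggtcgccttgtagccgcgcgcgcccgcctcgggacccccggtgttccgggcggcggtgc
Cry1 promoter: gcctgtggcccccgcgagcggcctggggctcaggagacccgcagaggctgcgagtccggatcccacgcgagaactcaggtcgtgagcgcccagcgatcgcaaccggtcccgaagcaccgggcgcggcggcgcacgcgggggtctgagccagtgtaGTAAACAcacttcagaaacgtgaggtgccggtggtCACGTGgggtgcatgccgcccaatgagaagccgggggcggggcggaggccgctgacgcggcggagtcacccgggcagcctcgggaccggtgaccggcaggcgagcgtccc
Nfil3 promoter: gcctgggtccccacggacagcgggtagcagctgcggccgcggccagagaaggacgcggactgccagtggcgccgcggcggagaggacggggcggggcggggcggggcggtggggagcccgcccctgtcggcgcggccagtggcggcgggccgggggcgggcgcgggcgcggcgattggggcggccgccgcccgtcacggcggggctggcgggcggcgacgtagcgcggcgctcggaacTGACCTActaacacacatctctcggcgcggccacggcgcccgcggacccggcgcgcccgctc

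The motifs were TAGGTCA, a single site bound by REV-ERB and ROR receptors, its paired form RevDR2 (AGGTCA, then any base, then TAGGTCA), the FOXA-type TGTTTAC, the HNF4-type CAAAGTCCA, the E-box CACGTG bound by clock activators, and the D-box TTATGTAA bound by PAR bZIP factors and NFIL3. Of the 5 windows, that of Nfil3 held TAGGTCA (reading TGACCTA on the printed strand), those of Ppp1r3c, Irs2, Bcl6 and Cry1 held CACGTG, and that of Cry1 also held TGTTTAC. Over the 1882 windows that lay under a gene-end anchor of these loops, from 1649 genes, CACGTG occurred in 10.4%, against 7.84% of all 21263 RefSeq windows. TAGGTCA occurred in 2.76% of the covered windows and in 2.32% of all, TGTTTAC in 3.13% and 3.01%, CAAAGTCCA in 0.691% and 0.451%, and TTATGTAA in 0.797% and 0.894%. The paired form occurred in 0 windows of either set. A match describes letters in a window and not a bound site, and the lack of a match says nothing about a factor.

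The partner anchor lay inside the body of the looping gene in 5626 loops (43.9%), inside the body of another gene in 2005 (15.6%) and between genes in 5194 (40.5%). Gene bodies thus held 59.5% of partners. Bodies make up 36.6% of the genome beyond 5 kb of gene ends, and 56.6% of the anchors of short, wide loops with no end at a gene lay in a body. Of the intergenic partners, 1199 (23.1%) lay inside an annotated long non-coding RNA gene. The median distance of a partner from the nearest gene end was 14.8 kb.

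Partners in the same gene were the nearest and those in another gene the farthest. The median span was 19.5 kb for the same gene, 28.9 kb for intergenic partners and 43.1 kb for other genes. In loops under 10 kb, 63.4% of partners lay in the same gene, 1.82% in another and 34.8% between genes. From 50 to 100 kb those shares were 25.3%, 27.9% and 46.8%. A short gene leaves no room for a partner in its own body beyond 5 kb of its ends, and the share followed gene length, at 3.14% for genes up to 20 kb and 68.9% for genes over 100 kb.

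**Figure D1:**
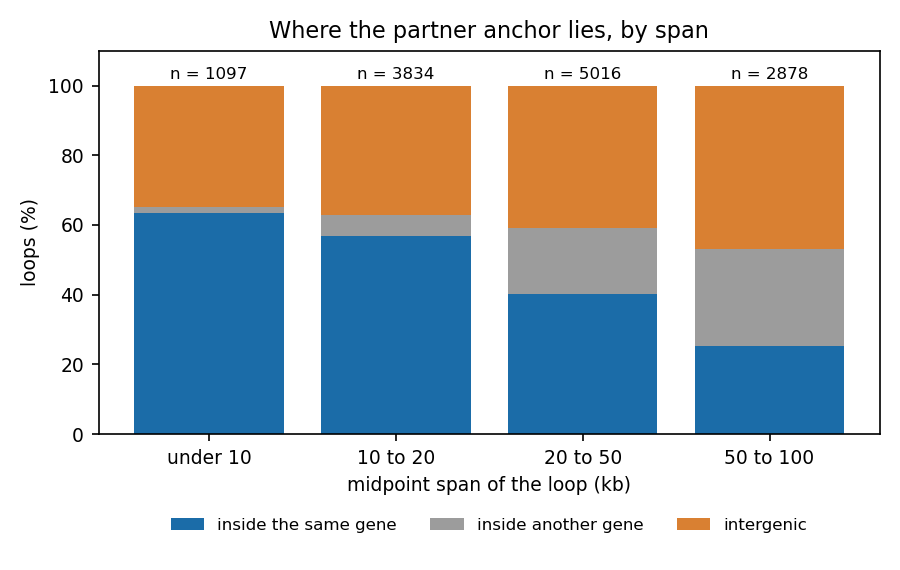
Share of outward loops of the ZT10 knock-in library (y axis, %) whose partner anchor lies inside the same gene, inside another gene or between genes, by midpoint span (x axis, kb), with the number of loops above each bar. The share inside the same gene is 63.4% in loops under 10 kb and 25.3% in loops of 50 to 100 kb.

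Most of these loops were thinly covered. The median was 4 PETs and the mean 6.94, 5047 loops (39.4%) stood at the lowest listed count of 3, and 1764 (13.8%) held 10 or more. Mean PETs were 6.95 for partners in the same gene, 5.73 in another gene and 7.40 between genes, against 7.28 for short loops with both anchors at gene ends and 6.52 for those with neither. Loops with wide anchors held more PETs, with a mean of 3.28 in the narrowest 25% and 16.0 in the widest 25%. Loops just inside the limits resembled those just outside. The mean was 3.29 PETs where the narrower anchor was up to 20 bp above the limit and 3.28 where it was up to 20 bp below. It was 5.73 for spans up to 5 kb inside the limit and 5.35 up to 5 kb beyond it. It was 6.92 with the partner 5 to 6 kb from a gene end and 6.34 at 4 to 5 kb, where the loop counts as joining gene ends.

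Where the anchor lay near 1 end of 1 gene of known strand, 6109 of 7955 loops (76.8%) left from the 5′ end and 1846 (23.2%) from the 3′ end. These loops came from 1861 and 736 genes. Of 2823 partners of 5′ ends in the same gene, 38.0% lay in the first 25% of the gene and 75.1% in the first 50%. The selection leaves out partners over 100 kb away and those within 5 kb of a gene end. These shares are therefore partly set by it, most of all in long genes, and no lean towards the start is read from them. For genes longer than the span limit plus the 5-kb window, which leave room on their own side, 921 of 1273 loops from the 5′ end (72.3%) and 195 of 308 from the 3′ end (63.3%) pointed into the gene. Upstream places close to the end of a neighbouring gene are removed by the way the loops were chosen, which lowers the count pointing away.

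In all, 4314 of 21887 protein-coding genes (19.7%) held at least 1 outward loop. The gene-end anchor lay near 2 genes in 1852 loops (14.4%) and near 3 or more in 147 (1.15%). Such a loop counts in full for each of these genes, so loops and PETs of neighbouring genes can be the same observations. Partners were counted as distinct anchors after overlapping partner anchors were merged. The median was 2 partners, 1991 genes (46.2%) had 1, 593 (13.7%) had 5 or more and 67 (1.55%) had 10 or more. Partners lay only in the gene's own body for 1019 genes (23.6%), both in and outside it for 890 (20.6%) and only outside it for 2405 (55.7%). Of 17976 pairs of partners of 1 gene, 4080 (22.7%) were themselves joined by a ZT10 loop.

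The genes with the most partners ranged from those with every partner between genes to those with every partner in their own body. Dusp6, which encodes a phosphatase that switches off ERK kinases, had 18 partners, 14 of them intergenic and 4 in another gene. The gene is 4.26 kb long (chr10:99263231-99267489) and held 28 loops with 384 PETs (counting interval 347 to 424). Its strongest loop, with 151 PETs, joined chr10:99260864-99274173 to an intergenic anchor at chr10:99353215-99359222, 88.7 kb downstream. On the other side, upstream, loops of 50 and 32 PETs both ended at anchors that start at position 99231719.

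Irs2 and Ppp1r3c had intergenic partners only, 17 each. Irs2 encodes an adaptor that carries the insulin signal into hepatocytes, and its gene (chr8:10984681-11008929) held 37 loops with 293 PETs (260 to 329). The strongest, of 78 PETs, ran from chr8:10972167-10980055, outside the gene but within 5 kb of its 3′ end, to chr8:10909770-10916474, 63.0 kb further downstream. A loop of 25 PETs ran from the 5′ end over 99.2 kb to the overlapping anchor chr8:10909559-10913500. Loops of 11, 9 and 7 PETs from the 5′ end reached into chr8:10972167-10980055, which there counted as an intergenic partner. Ppp1r3c encodes a subunit that targets protein phosphatase 1 to glycogen. Its 4.87-kb gene (chr19:36731731-36736604) held 23 loops with 163 PETs (139 to 190) on both sides, the strongest with 24 PETs to chr19:36644193-36647321 and 23 PETs to chr19:36794865-36798415.

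Bcl6, a transcriptional repressor of lipid genes in liver, had 15 partners, 14 of them intergenic. Of its 22 loops 21 pointed upstream, and the strongest, of 32 PETs, reached chr16:24088887-24091728 at 99.7 kb, near the span limit. Nfe2l2, which encodes the oxidative stress factor NRF2, had 15 partners, 10 of them intergenic. Clec2d, a C-type lectin gene, had 13 partners, all intergenic, with 238 PETs.

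At the other end of this range were long genes looped within themselves. Daam1, a formin that builds actin filaments, had all 16 partners in its own 161-kb body (chr12:71830950-71992376). Its 20 loops, all from the 5′ end and all downstream, held 291 PETs (259 to 326), 77 of them in a loop to chr12:71903618-71913186 at 72.7 kb. Arid5b, a chromatin regulator of fat metabolism, had 16 of 18 partners in its own body, with 21 loops from the 5′ end and 10 from the 3′ end. Zmiz1, a coregulator of the PIAS family, had 15 of 17, and 30 of its 32 loops pointed downstream from the 5′ end. Met, the receptor for hepatocyte growth factor, had 14 of 15, with 12 loops from the 5′ end and 13 from the 3′ end. Cmip had 12 of 13.

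The remaining genes of the leading 15 had partners both in their own body and outside it. Mtus1, which encodes a microtubule-associated protein, had 18 partners, 11 in its own body. Pik3r1, the regulatory subunit of the insulin-responsive PI3 kinase, had 15, with 8 in its own body and 7 between genes. Ddah1, which breaks down asymmetric dimethylarginine, had 11 of 14 in its own body and 329 PETs, of which a loop to chr3:145788699-145792370 held 141. Cobll1 had 10 of 14 and Nr1h4, the bile acid receptor FXR, 5 of 14. Adra1b, the adrenergic receptor of hepatocytes, had 13 partners with 462 PETs, the most of the 15.

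**Figure D2:**
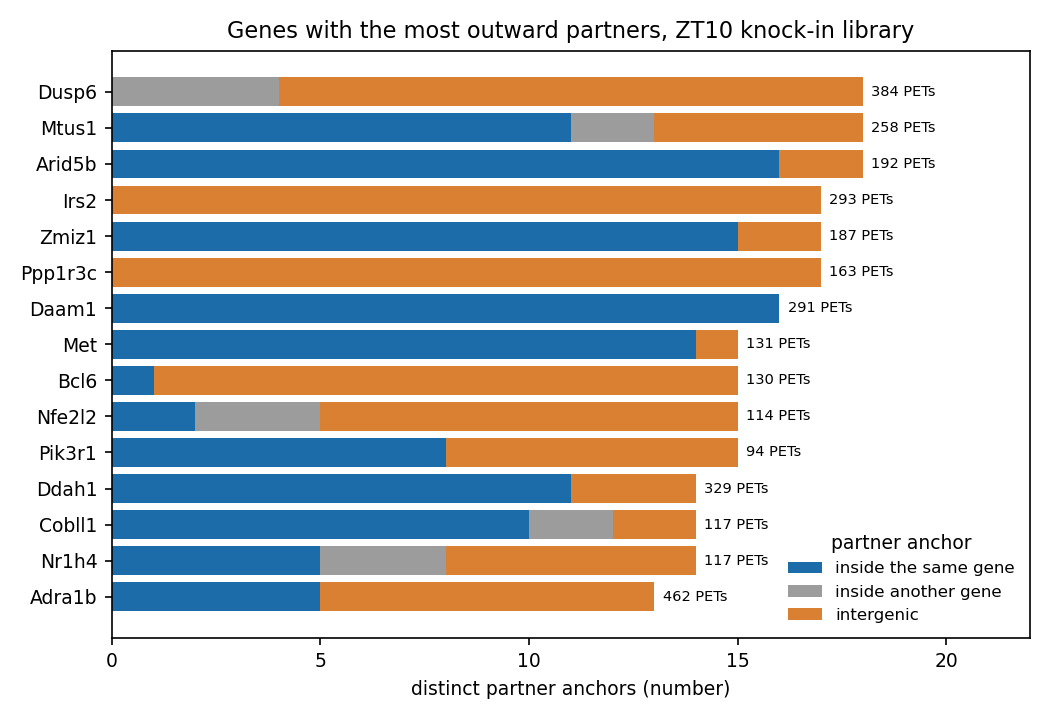
Number of distinct partner anchors (x axis) of the 15 genes with the most, in the ZT10 knock-in library, coloured by whether the partner lies inside the same gene, inside another gene or between genes, with the PETs beside each bar. Irs2 and Ppp1r3c have 17 intergenic partners each, and Daam1 has 16 partners, all inside itself.

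Partner numbers depended on how near anchors were counted and on thin loops. With partners merged when within 2 kb of each other, Dusp6 had 11, Irs2 12, Ppp1r3c 11, Daam1 8 and Arid5b 13. With loops of 5 or more PETs only, Irs2 and Ppp1r3c had 9 each and Arid5b 8. With gene ends read within 2 kb instead of 5 kb, Daam1 had 4, Met 5 and Bcl6 7, so much of their anchoring lay 2 to 5 kb from the annotated end.

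**Figure D3:**
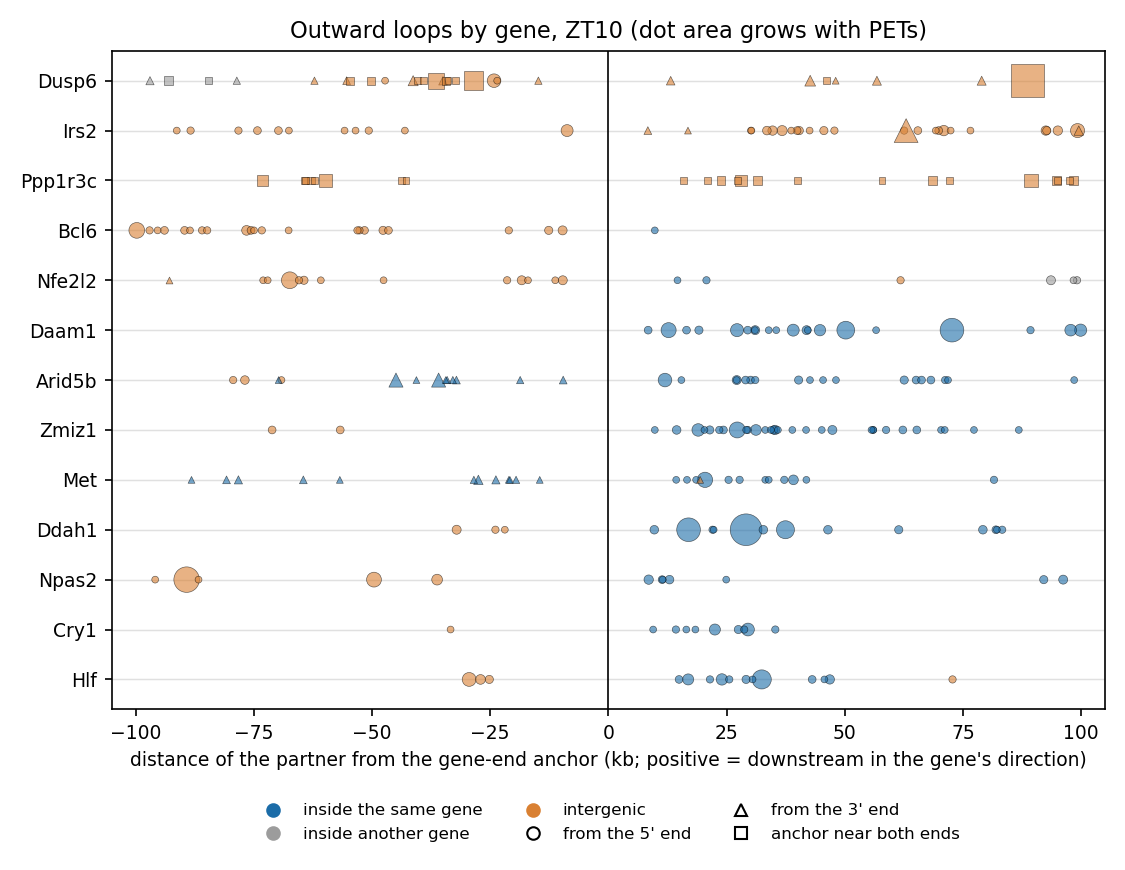
Distance of each partner from its gene-end anchor (x axis, kb, positive downstream in the gene's direction) for 13 genes with known strand in the ZT10 knock-in library, 1 marker per loop with area growing with PETs. Colour gives where the partner lies and marker shape which gene end it leaves from. Bcl6 loops lie almost all upstream and Daam1 loops all downstream.

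The 5 strongest outward loops each joined places at most 50.5 kb apart. Rnf125, a ubiquitin ligase gene, held 312 PETs between its end (chr18:20930351-20946594) and its own body (chr18:20954416-20971361). Slc34a2, a phosphate transporter gene, held 289 PETs to an intergenic anchor at chr5:52986902-53001838, 50.5 kb away. Aass, which degrades lysine, held 233 PETs to the intergenic chr6:23142887-23150334. Adra1b held 205 PETs to chr11:43886671-43895744 in its own body, and Qsox1, a sulfhydryl oxidase gene, 168 PETs to its own body at chr1:155793854-155799640. All 5 loops were listed at ZT22, with 3 PETs at Rnf125, Slc34a2 and Qsox1, 7 at Aass and 9 at Adra1b. None of the 5 was listed in either dhIDR library, and WT replicate 1 listed 6 PETs at Rnf125 and 3 at Aass, while WT replicate 2 listed 6 at Adra1b. The next 10 loops by PETs (135 to 166) had 1 listed at ZT22, 6 in a dhIDR library and 2 in a WT library.

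Most partner anchors served a single gene-end anchor. Of 8009 merged partner anchors, 5906 (73.7%) were joined to 1 gene-end anchor, 1301 (16.2%) to 2 and 802 (10.0%) to 3 or more. The anchor with the most was intergenic, chr1:88283244-88290920, joined by 17 loops with 409 PETs to 12 gene-end anchors at Hjurp, Mroh2a, Trpm8 and the Ugt1a genes, which conjugate bilirubin and drugs. The Ugt1a transcripts share their 3′ end, so the 155 PETs of the strongest loop there count for each of 9 Ugt1a genes and are 1 observation. A second intergenic anchor, chr9:106262831-106266549, was joined to 10 gene-end anchors at Alas1, which starts haem synthesis, and at Poc1a, Tlr9 and Wdr82. Among the partners that held a microRNA gene, Mir122, the abundant liver microRNA, lay in the partner of 4 loops from Nedd4l with 18 PETs.

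Of 19 core clock genes, 11 held an outward loop (57.9%, against 19.7% of all protein-coding genes). The loops were chosen in this library, so nothing is read from the difference. Npas2, a partner of BMAL1 and a direct REV-ERBα target gene, had 9 partners and 178 PETs, of which 137 lay in intergenic loops. A loop of 90 PETs joined its start to chr1:39101492-39107658, 89.2 kb upstream, and loops of 28 and 13 PETs reached 49.6 and 36.2 kb upstream. Hlf, a PAR bZIP activator, had 8 partners and 161 PETs, 117 of them in its own body.

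Among the repressors of the clock, Per2 held 186 PETs over 4 partners, of which 127 lay in 1 loop between chr1:91453840-91461756 and chr1:91439375-91447548 inside the gene. Cry1 had 7 partners, 6 in its own body, with spans up to 35.3 kb and 64 PETs in all, and Cry2 had 3 with 35 PETs. Bhlhe40 had 7 partners with 76 PETs and Bhlhe41 had 3 with 10 PETs, all intergenic. Nfil3, which opposes PAR bZIP factors, had 4 partners with 30 PETs, and Nr1d1 itself had 4 with 31 PETs, with 28 of those in other genes' bodies. Tef, a PAR bZIP activator, had 2 partners with 7 PETs. Arntl, Clock, Per1, Per3, Rora, Nr1d2, Dbp and Ciart had no outward loop. That does not mean no short loop, since loops that missed the selection are left out. Counting every ZT10 loop of 100 kb or less with an anchor at the gene end, Ciart held 90 PETs, Per1 23 and Dbp 3. Nr1d1 held 256 by the same count, and Arntl, Clock, Per3, Rora and Nr1d2 held 0.

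Metabolic gene lists held outward loops at 75% to 88.2% of their members, against 19.7% of all protein-coding genes. As for the clock genes, nothing is read from this difference or from the list counts that follow. In the glucose list 12 of 16 genes had one, with a median of 8.5 partners, led by Irs2, Ppp1r3c, Irs1 (11 partners, 215 PETs), Insr (11, 66 PETs) and Ppp1r3b (11, 204 PETs). In the cholesterol and bile acid list 15 of 17 had one. There Cyp7a1, whose enzyme limits the rate of bile acid synthesis, had 7 partners, all intergenic, and 276 PETs, and Scarb1, the HDL receptor, had 10 partners and 133 PETs, 124 of them in its own body. In the lipogenesis list 15 of 20 had one, with 234 PETs at Insig2, which holds SREBP in the endoplasmic reticulum, and 93 at Dgat2, which makes triglyceride. Insig2 had 144 of its PETs in 1 loop to chr1:121342884-121352433, 17.7 kb upstream.

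Fatty acid oxidation genes (11 of 14) were led by Pdk4, which inhibits pyruvate dehydrogenase, with 158 PETs, 151 of them intergenic, and by Ppara, the fasting receptor, with 12 partners and 139 PETs. Xenobiotic genes (13 of 15) were led by Ugt1a1 with 287 PETs and Abcc3, a conjugate exporter, with 65. Among liver transcription factors and corepressors 17 of 19 had a loop, with 76 intergenic partners and 33 in their own bodies. Tle3, a corepressor, had 222 PETs and Cebpa, which drives hepatocyte genes, 198, all intergenic at Cebpa. Secreted hepatocyte proteins had 14 of 20, with Apoa1 at 204 PETs and Ttr at 118, and acute-phase genes 9 of 15, with Crp at 71 and Saa1 at 48.

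Markers of other liver cells held few PETs. Kupffer and lymphoid markers held 0 of 5 each, stellate markers 1 of 5 (Reln, 8 PETs) and cholangiocyte markers 1 of 5 (Sox9, 25 PETs). Endothelial markers held 4 of 5, with 44 PETs in all, 17 at Lyve1 and 16 at Pecam1, and Kdr held none. Among hepatocyte markers, Apoa1 and Ttr are given above, Alb had 9 partners with 51 PETs, Hnf4a 5 with 49 PETs and Fgg 1 with 4 PETs, while Serpina1a had none. Counting every short ZT10 loop at the gene end, Fgg held 1197 PETs, Hnf4a 73, Alb 57 and Serpina1a 0. By that count the endothelial list held 58 in all, the cholangiocyte list 25, the stellate list 11, the lymphoid list 6 and the Kupffer list 0.

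**Figure D4:**
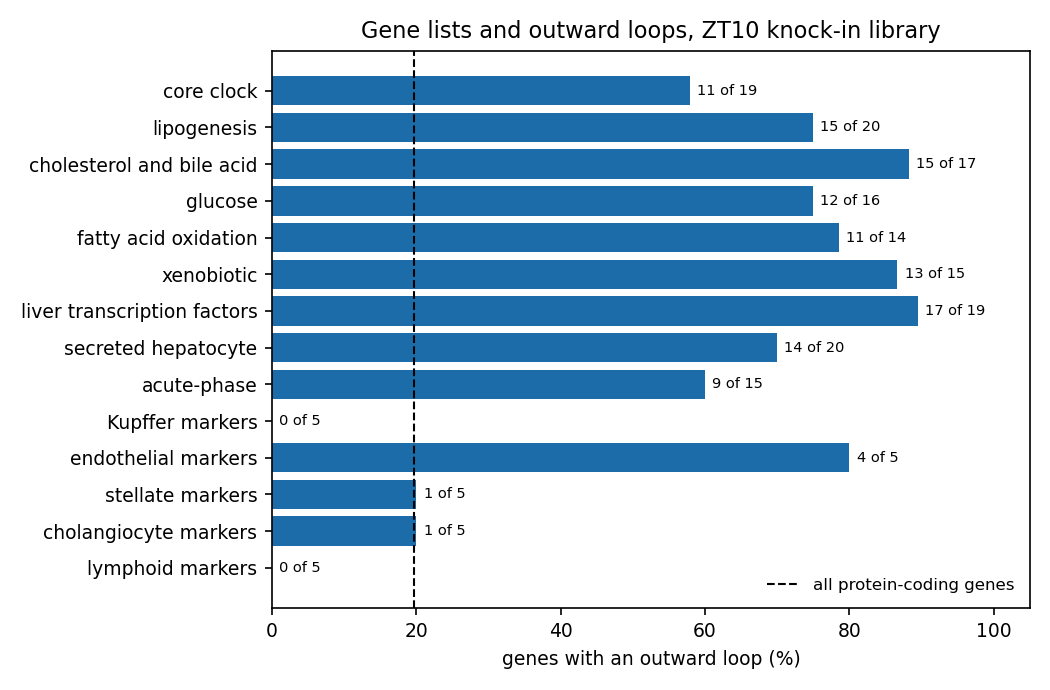
Share of the genes of each list with at least 1 outward loop in the ZT10 knock-in library (x axis, %), with the numbers beside the bars and the share over all protein-coding genes as a dashed line at 19.7%. Clock, metabolic and hepatocyte lists lie between 57.9% and 89.5%, endothelial markers at 4 of 5, stellate and cholangiocyte markers at 1 of 5, and Kupffer and lymphoid markers at 0 of 5.

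Few of these loops were listed in any other library. A loop counted as matched when both of its anchors overlapped those of a loop there by at least 1 bp. At ZT22, 201 of 12825 (1.57%, Wilson 95% interval 1.37% to 1.80%) were matched, against 0.969% of all ZT10 loops. The dhIDR libraries matched 112 (0.873%) and 57 (0.444%), against 0.617% and 0.266% of all ZT10 loops, and the WT libraries 53 (0.413%) and 60 (0.468%), against 0.297% and 0.358%. Members averaged 0.659% in dhIDR libraries and 0.441% in WT libraries, a difference of 0.218 percentage points (exact two-sided permutation test, p = 0.667, smallest possible p 0.33, adjusted 0.667 over 6 tests, n = 2 each). Short loops with both anchors at gene ends or with neither were matched to a similar extent, for example 1.38% and 1.40% at ZT22.

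**Figure D5:**
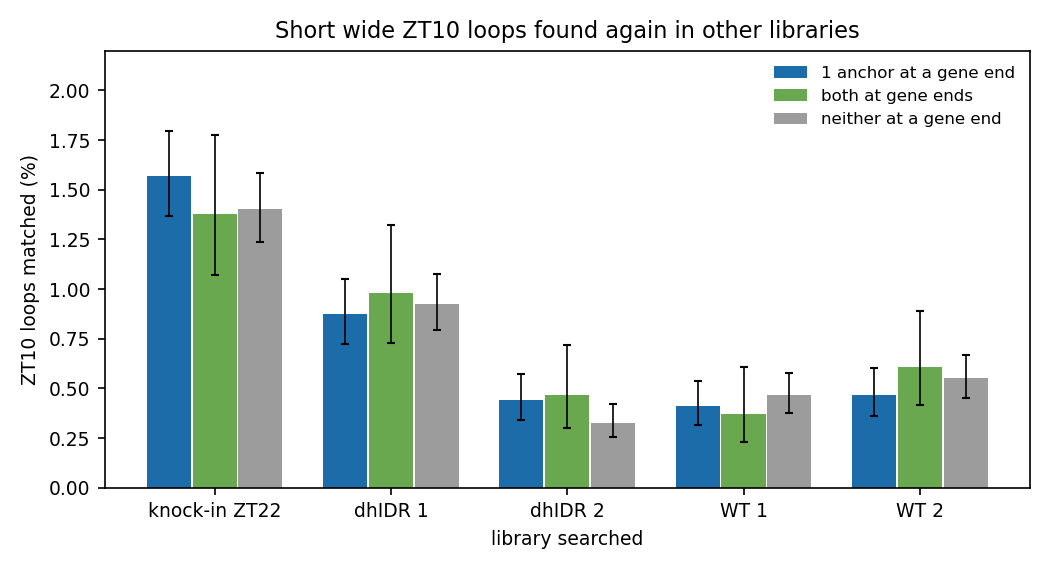
Share of short, wide ZT10 loops matched by a loop of each other library (y axis, %), for loops with 1, both or no anchor at a gene end; bars are shares and lines their Wilson 95% intervals for counting error. Outward loops reach 1.57% at ZT22 and between 0.413% and 0.873% in the 4 AAV libraries.

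Loops with more PETs at ZT10 were matched more often in each library. Of the 1764 loops with 10 or more PETs, 5.27% were matched at ZT22, 3.29% and 2.04% in dhIDR libraries and 1.64% and 1.70% in WT libraries, and of the 5047 loops with 3 PETs, 0.456% at ZT22, 0.297% and 0.0396% in dhIDR libraries and 0.218% and 0.139% in WT libraries. Strong loops also had the wider anchors, which have more room to overlap, and the part of width in these shares was not tested.

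In all, 12381 loops (96.5%) were matched in none of the other 5 libraries, 413 in 1, 26 in 2 and 5 in 3 or more. Of these 5, 4 lay at Sfi1 on chr11 between 3000000 and 3300000, where listed counts reached 336 PETs at ZT22 and 366 in WT replicate 1. The fifth was the Per2 loop of 127 PETs, listed with 3 and 4 PETs in dhIDR replicates 1 and 2 and with 3 PETs in both WT replicates, and not listed at ZT22. That made Per2 the 1 gene outside Sfi1 with an outward loop matched in all 4 AAV libraries. The strongest Dusp6 loop was matched by 3 PETs in dhIDR replicate 2 and 3 in WT replicate 1, and the 90-PET Npas2 loop by 4 PETs at ZT22 and 3 in dhIDR replicate 2.

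Relative to listed PETs, the matched loops summed to 22.5 and 13.4 per 10000 in dhIDR libraries and 56.3 and 14.2 in WT libraries, a difference of -17.2 (exact two-sided permutation test, p = 0.667, n = 2 each). The sign rested on the chr11 region and on WT replicate 1. Without the region the values were 22.03 and 13.1 in dhIDR libraries and 14.2 and 8.19 in WT libraries, a difference of 6.35 (p = 0.667, same exact test), and without WT replicate 1 the difference was 3.82. At ZT22 the sum was 85.4 per 10000, and 47.8 without the region.

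Applied to each library by itself, the selection found 12825 loops at ZT10 and 918 at ZT22, and 152 and 50 in dhIDR libraries against 275 and 320 in WT libraries. As a share of each library's loops this was 22.2% at ZT10 and 2.26% at ZT22, and 0.317% and 0.119% in dhIDR libraries against 0.886% and 0.551% in WT libraries. The constructs did not overlap, with a difference of -0.50 percentage points (exact two-sided permutation test, p = 0.33, the smallest possible, adjusted p = 0.667, n = 2 each). Anchor width moved with this count. Loops with both anchors at least 700 bp wide made up 71.5% at ZT10 and 11.7% at ZT22, and 1.61% and 0.669% in dhIDR libraries against 5.89% and 3.49% in WT libraries. Among short loops of any width, those with 1 anchor at a gene end made up 35.7% at ZT10 and 21.8% at ZT22, and 21.8% and 19.8% in dhIDR libraries against 19.0% and 19.1% in WT libraries, a difference of 1.75 percentage points (exact p = 0.33). The part of anchor width in the counts was not tested further.

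A looser count took genes instead of loops and did not require the same loop or partner. A listed PET of any short loop at the gene end was found at ZT22 for 33.8% of the 4314 genes with an outward ZT10 loop and for 16.8% of the other 17573 genes. In dhIDR libraries the shares were 31.8% and 21.8% for genes with an outward loop and 17.0% and 12.3% for the other genes, and in WT libraries 17.1% and 25.5% for genes with an outward loop and 10.2% and 17.8% for the other genes. Dusp6 held 409 such PETs at ZT10 and 3 at ZT22, with 3 and 3 in dhIDR libraries and 3 and 6 in WT libraries. Npas2 held 203 at ZT10 and 7 at ZT22, with 0 and 3 in dhIDR libraries and 10 and 3 in WT libraries. Cry1 and Ppp1r3c held 70 and 163 at ZT10 and none elsewhere.

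Between constructs, short-loop PETs were compared per gene over all protein-coding genes with at least 10 PETs in the 4 AAV libraries. Of 1298 genes tested, 0 passed (0% called at an adjusted p of 0.05 with edgeR's quasi-likelihood test), 14 had an unadjusted p under 0.05, and DESeq2 called 2, Sfi1 and Gm51877. Of the 512 tested genes with an outward ZT10 loop 0 passed and 7 had an unadjusted p under 0.05. Their median log2 difference, dhIDR over WT, was 0.62, against 0.53 over all tested genes. Libraries of 1 construct varied with a biological coefficient of variation of 1.52, and 0 of 71 simulated 8-fold changes were recovered at this depth.

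Of the 14 genes with an unadjusted p under 0.05, 12 had the lower value and 2 the higher value in dhIDR libraries, and of the 7 with an outward loop, 6 had the lower and 1 the higher. Over all 1298 tested genes 761 had the higher value in dhIDR libraries, as had 313 of the 512 with an outward loop. Nothing is read from these tallies. Genes with an outward loop are named by smallest p within each direction, at an adjusted p of 0.455 each (edgeR quasi-likelihood test). Among those with the higher value only Gm52215 had an unadjusted p under 0.05. The early-response gene Fos held 10 and 8 PETs in dhIDR libraries and none in WT libraries, the metalloprotease gene Mmp15 held 8 and 10 against none, Smagp 12 and 6, and Gm52215 8 and 12, each against none in WT libraries. In the other direction, the zinc finger gene Zfp787 held 0 and 0 PETs in dhIDR libraries against 11 and 9 in WT libraries, the amine transporter gene Slc18a1 0 and 0 against 10 and 4, and the WNT-pathway factor Tcf7l1 0 and 0 against 7 and 8. The genes named so far in this paragraph had no PETs in 1 construct, so they passed the minimum of 10 PETs through the other construct alone. Ranking by p also favours such counts, so nothing is read from these contrasts. Eif4enif1 held 9 and 0 PETs in dhIDR libraries against 395 and 58 in WT libraries (log2 -6.28, SE 2.65), and Gm51877 9 and 6 against 411 and 92 (log2 -5.62, SE 2.54). Both lie beside Sfi1 and share its loops, so they are not separate observations.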

How the data were processed

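The deposited files, 1 per library, give anchor pairs with the raw counts of PETs between them; the values are whole numbers, separate for each replicate. Per the submitters' processing notes, coordinates are those of mm10. How reads were aligned, stripped of duplicates and clustered into loops is not given in the sources used here, nor is whether coordinates count from 0 or 1, so anchors are printed as the files give them. Mitochondrial loops were left out. Genes were the 21887 nuclear protein-coding genes of RefSeq GRCm38.p6, whose table gives no strand; strand came from RefSeq's promoter table for 17492 genes and was unknown for 4395, Per2 and Mtus1 among them. A partner's place was that of its midpoint.

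The outward loops, the 14 gene lists (180 entries, all annotated) and the tests were chosen with earlier results of these data known. Named genes were the 15 with most partners, the 5 with most in their own body, the 5 with most intergenic ones, all core clock genes with an outward loop, the 2 with most PETs of each other list, 5 per direction by smallest p in the construct comparison among genes with an outward loop, and the 5 strongest loops. Some genes that this rule takes are not reported here. Insr, Ppp1r3b, Alb, Hnf4a, Fgg, Mir122, the shared anchors and the genes without loops were added after values were seen.

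Groups came from the sample titles. Genes were compared between constructs with edgeR 4.0.16 (quasi-likelihood, library size the listed nuclear PETs, at least 10 PETs in total, Benjamini-Hochberg at 0.05), with DESeq2 1.42.0 as an alternative, and library values by exact permutation tests (scipy 1.17.1, Python 3.11.15). PET intervals are exact Poisson and shares Wilson, at 95%. In simulated data at 50 times the depth and a dispersion of 0.05, edgeR recovered 200 of 200 changes of 8-fold and 188 of 200 of 4-fold among 10382 genes. Deviations of same-numbered WT and dhIDR replicates correlated at -0.04 over 1298 genes, so the numbers were not taken to pair the libraries. Alternatives covered the window, width, span, PET minimum, merging, matching, filters, normalization and each replicate.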

Additional observations from a re-analysis of the deposited data

Results flagged for a closer look

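Loops within the mitochondrial genome, left out of every comparison above, were listed in all 6 libraries. They held 49244 PETs in the ZT10 knock-in library (13.3% of its listed PETs) and 7300 at ZT22 (5.21%). The dhIDR libraries held 369 and 151, against 1207 and 1012 in the WT libraries. No control library was analysed here, so these counts stand above the lowest listed count of 3 and not above a control. The ZT10 library, from which the outward loops were taken, thus also had the most mitochondrial PETs, and the part of this in the loop counts was not tested.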

How the results depend on the processing

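Over 113 recomputed values of main results, 77 kept their size or call, 32 moved and 4 turned sign. The 77 include the shares with partners placed by any overlap. Those could not differ, since no protein-coding gene end lies within 5 kb of a partner. Of 12825 outward loops, 8297 had anchors of 1000 bp or more and 5341 had 5 or more PETs. The intergenic share was 38.7% up to 50 kb, 41.8% up to 200 kb, 42.2% with 5 or more PETs and 41.6% without predicted gene models. The share in the same gene was 37.7% with gene ends read within 2 kb, 48.4% within 10 kb, 49.2% up to 50 kb and 41.0% up to 200 kb. Genes with 10 or more partners numbered 101 with anchors of 500 bp, 24 with 1000 bp, 22 up to 50 kb, 111 up to 200 kb, 5 with 5 or more PETs and 10 with partners merged within 2 kb. With 1000-bp anchors the matched shares were 2.13% at ZT22, 1.18% and 0.579% in dhIDR libraries and 0.615% in WT replicate 2. With 5 or more PETs they were 2.98% at ZT22, 1.63% and 0.917% in dhIDR and 0.730% and 0.880% in WT libraries. With anchors allowed to lie within 2 kb they were 4.05% at ZT22, 2.93% and 1.43% in dhIDR and 1.13% and 1.53% in WT libraries. The dhIDR minus WT difference in matched PETs per 10000 was between -38.3 and 3.82 with 1 replicate left out, reversed without WT replicate 1, and was 6.35 without the chr11 region. The difference in the share of loops that met the selection, between -0.67 and -0.33 with 1 replicate left out, reversed to 0.18 with anchors of 500 bp or more and with no minimum width, which are the same loops. Chosen after seeing the data were the setting with no minimum width, the replicates left out of this last share, the chr11 setting for all but the loop number and the intergenic share, the gene set without predicted models for the loop number and the same-gene share, and partners placed by any overlap for the same-gene share. DESeq2 called 2 genes and the 10-kb gene-end window 3 (Sfi1, Gm51877 and Eif4enif1). With the replicate number as a block edgeR called 0 genes (2 at an unadjusted p under 0.05), and with any 1 replicate left out 0, so the lowest and highest were both 0. The files list loops from 3 PETs up and hold no total depth, and most outward loops stood at 3 to 4 PETs, so a loop that is not matched may lie below the listed minimum. The causes of these changes were not tested.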
